A study of Mus musculus with 12 samples.

Results

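Hepatocyte preparations from mice injected with an antibody against Gr1 were set against preparations from mice injected with an isotype antibody, both taken on day 2 after partial hepatectomy (post-operative day 2, POD2). The members were the 6 libraries whose titles carry that day, 3 labelled as depleted of granulocytic myeloid-derived suppressor cells (G-MDSCs) and 3 labelled control, of 12 libraries in all. The other 6 libraries carry the same labels at POD1 and enter here only where the effect at POD2 is set beside that at POD1. All mice were wild-type BALB/C males aged 8 weeks. They received 200 µg of antibody in 100 µl of buffer into the peritoneum, and a second dose 2 days later on the day of surgery. Removal of 70% of the liver was shared by every group, and no unoperated or uninjected group was analysed here. Cells were released from the remnant liver by collagenase perfusion, filtered and pelleted at low speed, which enriches for hepatocytes but involves no cell sorting. The stated question was what G-MDSCs do to regenerating hepatocytes. No label ties a library to its own mouse, so p-values here measure no more than how these samples spread, and that spread may be technical.

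After partial hepatectomy the remaining hepatocytes leave quiescence, pass through DNA replication and divide, while they go on secreting plasma proteins. Resident macrophages (Kupffer cells), sinusoidal endothelial cells and recruited myeloid cells supply cytokines and growth factors during this time. Gr1 is the granulocyte antigen encoded by Ly6g, and antibodies raised against it also bind the products of Ly6c1 and Ly6c2 on monocytes. G-MDSCs share these surface markers and most granule genes with neutrophils, so transcripts of both cell types cannot be told apart by these genes.

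The promoters of 6 genes are printed as examples of the mitosis, DNA replication and granule lists, for which the share of promoters with each motif follows. Only windows that hold the motifs named for the gene were printed. They are the RefSeq windows (GRCm38.p6) from 250 bases before to 50 bases after the start, read 5′ to 3′ on the gene's strand. Cdc20 (activator of the anaphase-promoting complex), Aurka (a spindle kinase) and Cdk1 (the mitotic cyclin-dependent kinase) stand for the mitosis list. In these 3 sequences capitals mark CCAAT and the cell cycle homology region, searched as TTTGAA or TTCGAA on both strands.
Cdc20 (chr4:118437294-118437593, minus strand): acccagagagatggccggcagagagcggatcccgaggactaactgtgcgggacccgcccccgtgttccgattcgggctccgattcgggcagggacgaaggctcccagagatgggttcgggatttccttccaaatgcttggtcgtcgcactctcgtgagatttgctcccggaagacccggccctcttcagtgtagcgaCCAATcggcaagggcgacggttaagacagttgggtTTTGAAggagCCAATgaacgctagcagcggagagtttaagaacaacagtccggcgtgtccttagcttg
Aurka (chr2:172370521-172370820, minus strand): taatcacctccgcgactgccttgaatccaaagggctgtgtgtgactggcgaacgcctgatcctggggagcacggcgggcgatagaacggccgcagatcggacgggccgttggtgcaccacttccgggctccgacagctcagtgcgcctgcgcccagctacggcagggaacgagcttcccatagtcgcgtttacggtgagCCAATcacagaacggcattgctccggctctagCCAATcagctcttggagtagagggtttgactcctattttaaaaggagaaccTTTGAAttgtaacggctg
Cdk1 (chr10:69352863-69353162, minus strand): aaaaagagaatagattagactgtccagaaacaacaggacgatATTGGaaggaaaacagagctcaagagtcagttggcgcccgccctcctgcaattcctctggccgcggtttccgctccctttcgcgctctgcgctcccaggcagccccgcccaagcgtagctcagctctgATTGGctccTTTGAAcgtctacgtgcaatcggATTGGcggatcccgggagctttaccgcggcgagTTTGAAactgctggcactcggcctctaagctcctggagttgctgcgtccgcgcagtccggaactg
Mcm7 encodes a subunit of the replicative helicase, and its capitals mark an E2F motif, searched as TTTCCCGC or TTTGGCGC on both strands.
Mcm7 (chr5:138171834-138172133, minus strand): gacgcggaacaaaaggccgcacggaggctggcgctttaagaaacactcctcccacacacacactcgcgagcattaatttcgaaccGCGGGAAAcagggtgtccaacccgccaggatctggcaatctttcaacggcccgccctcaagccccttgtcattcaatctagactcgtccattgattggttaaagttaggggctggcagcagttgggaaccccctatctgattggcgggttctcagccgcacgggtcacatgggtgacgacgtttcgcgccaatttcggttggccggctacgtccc
Ngp (neutrophilic granule protein) and Ltf (lactotransferrin) encode granule proteins of neutrophils, and their capitals mark a C/EBP motif, searched as TTGCNNAA on both strands.
Ngp (chr9:110419558-110419857, plus strand): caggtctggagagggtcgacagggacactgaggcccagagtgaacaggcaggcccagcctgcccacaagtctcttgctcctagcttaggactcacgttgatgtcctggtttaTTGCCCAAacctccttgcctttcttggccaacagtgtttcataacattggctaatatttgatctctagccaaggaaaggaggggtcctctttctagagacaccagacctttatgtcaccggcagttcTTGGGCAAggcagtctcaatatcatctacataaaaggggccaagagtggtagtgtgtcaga
Ltf (chr9:111019042-111019341, plus strand): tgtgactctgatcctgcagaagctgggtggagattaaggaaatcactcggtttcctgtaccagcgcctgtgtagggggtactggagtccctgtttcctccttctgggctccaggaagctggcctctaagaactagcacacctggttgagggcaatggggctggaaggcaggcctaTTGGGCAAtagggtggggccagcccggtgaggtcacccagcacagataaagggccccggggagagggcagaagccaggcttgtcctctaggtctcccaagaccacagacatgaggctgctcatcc
The homology region was found in 30 of 41 promoters of the mitosis list, or 73.2%, against 19.2% of all 32851 promoters and 14.4% of those of genes tested. CCAAT was found in 73.2% of the mitosis promoters, against 37.4% of all promoters, and 2 or more CCAAT in 46.3% against 11.5%. It was not particular to that list. CCAAT was found in 59.1% of the DNA replication promoters, with 2 or more in 34.1%. In mature neutrophil promoters these shares were 53.8% and 0%, and in secondary and tertiary granule promoters 35.7% and 0%. The E2F motif was found in 13 of 44 promoters of the DNA replication list (29.5%), against 1.56% of all. The C/EBP motif was found in 4 of 14 promoters of the secondary and tertiary granule list (28.6%) and in 5 of 26 of the mature neutrophil list (19.2%), against 10.8% of all. In the sequences printed no CCAAT overlaps a homology region. A match is a description of letters only, and these shares carry no test.

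The transcript of the antibody's target checks the labels. Ly6g stood at 25.4, 30.2 and 51.6 CPM (counts per scaled library size) in anti-Gr1-labelled libraries, against 0.538, 0.789 and 0.246 CPM in isotype-labelled ones. The groups did not overlap, and the libraries labelled for removal of Gr1-bearing cells held the higher level in all 3. The log2 fold change was 6.34 ± 0.65 (SE), with an adjusted p of 0.00151 by edgeR's quasi-likelihood test with Benjamini-Hochberg adjustment. Ly6c2, its relative on monocytes, stood at 18.7, 21.1 and 23.8 CPM in anti-Gr1-labelled libraries, against 3.68, 3.42 and 1.85 CPM in isotype-labelled ones (log2 3.08 ± 0.28, adjusted p = 0.00142). Ly6c1, which endothelial cells also transcribe, averaged 24.5 ± 6.58 CPM in anti-Gr1-labelled libraries and 7.18 ± 0.301 CPM in isotype-labelled ones (log2 1.90 ± 0.40, adjusted p = 0.0117). It did not pass without isotype replicate 3. Ly6c1 and Ly6c2 are close copies whose reads the counting could split between them. The target thus went against the label, and both groups are named below by what their libraries are labelled, without taking the direction as that of depletion.

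Several libraries were nearly the same. Total counts lay between 13454505 and 15426443 in anti-Gr1-labelled libraries and between 13488905 and 13870352 in isotype-labelled ones. Replicates 1 and 2 of isotype POD2 had a chi-square of 1.62 per gene (counting noise alone gives 1), and those of anti-Gr1 POD2 had 5.27. Anti-Gr1 POD2 replicate 3 and anti-Gr1 POD1 replicate 3, which carry different days, gave 3.51, and all other pairs of libraries gave at least 58.3. Replicates 1 and 2 were therefore summed to 1 column in each POD2 group, and the spread was shared with the POD1 groups. Means ± SD below have n = 2 a group, with the near-identical pair averaged first, and log2 fold changes carry their SE. The scaling factor of isotype replicate 3 was 0.602, against 0.821 to 1.07 in the other POD2 libraries. That library gave 27.6% of its counts to pancreatic acinar genes, against 12.5%, 13.3% and 2.56% in anti-Gr1-labelled libraries and 7.41% and 7.33% in the other isotype libraries.

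Of 15647 genes tested, 2518 rose and 1442 fell in anti-Gr1-labelled libraries at an adjusted p under 0.05 (edgeR), and 1950 and 827 of these by at least 2-fold. The calls made up 25.3% of the genes, 16.1% higher and 9.22% lower, and the median log2 fold change of all genes was 0.10. With the 12 libraries as labelled, 3183 rose and 3221 fell of 15294 tested (41.9%), and 3934 genes were called the same way in both fits, 99.3% of the calls with pairs summed and 61.4% of those as labelled. Without scaling factors 3188 rose and 442 fell, so that 87.8% of calls were higher in place of 63.6%, and the median of all genes stood at 0.51. With trimmed-mean scaling after removal of acinar genes 52.4% of calls were higher. Each fit without a replicate 3 leaves 1 column in that arm and called fewer of all genes. Counts of listed genes from these fits, given below, are to be read beside the lower totals that follow. Without anti-Gr1 replicate 3, 787 rose and 296 fell, and without isotype replicate 3, 470 rose and 336 fell. All 3960 calls kept their sign in both of these fits, in which 1048 and 802 of them passed. Dropping both near-identical libraries labelled with different days left 944 higher and 706 lower.

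**Figure D1:**
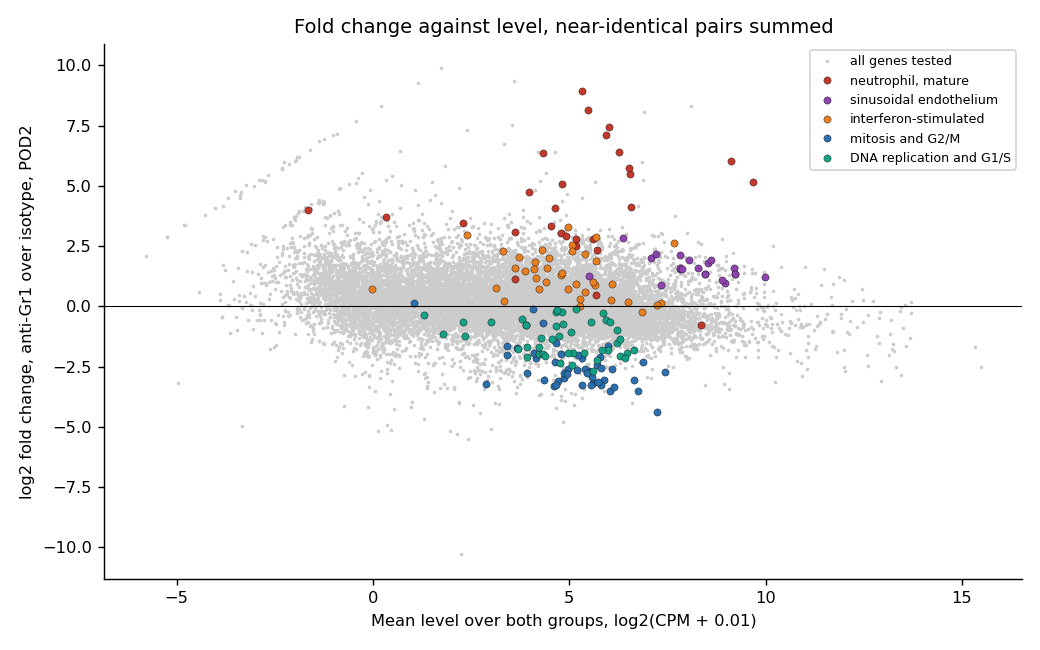
Log2 fold change (anti-Gr1 over isotype, POD2, y axis) against mean level (log2 of CPM + 0.01, x axis), 1 point per gene tested, with 5 gene lists in colour. Mature neutrophil genes lie mostly above the other coloured lists, with S100a8 at 6.03, and mitosis genes below them, with Cdc20 at -4.39.

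Mature neutrophil genes had the highest median of the 44 lists. Of 28 mature neutrophil genes tested, 24 rose and none fell, with a median log2 fold change of 4.05 against 0.10 over all genes, beside the background of 16.1% of genes called higher. The same number, 24, rose as labelled, 20 without anti-Gr1 replicate 3 and 18 without isotype replicate 3. S100a8, a subunit of calprotectin, stood at 913, 1132 and 1152 CPM in anti-Gr1-labelled libraries, against 24.5, 27.4 and 10.1 CPM in isotype-labelled ones (log2 6.03 ± 0.61, adjusted p = 0.0015, edgeR). Its partner S100a9 averaged 1594 ± 382 CPM in anti-Gr1-labelled libraries and 48.0 ± 25.7 CPM in isotype-labelled ones (log2 5.17 ± 0.56). Retnlg, a resistin-like protein of granulocytes, stood at 136, 149 and 226 CPM in anti-Gr1-labelled libraries, against 5.83, 5.17 and 3.08 CPM in isotype-labelled ones (log2 5.51 ± 0.45). For these genes the lowest anti-Gr1-labelled library lay above the highest labelled isotype. That was a condition of the rule for the largest rises, which named S100a8 and Retnlg. Ifitm6 rose by log2 5.75 ± 0.41, and Cd177, a surface protein of neutrophils, by log2 7.10 ± 0.68. The stefin A genes Stfa3 and Stfa2, cysteine protease inhibitors, stood at 65.7 to 103.8 and 111 to 158 CPM in anti-Gr1-labelled libraries, against 0.0897 to 0.246 and 0.616 to 0.897 CPM in isotype-labelled ones. They are near-identical copies, so their single values are uncertain. BC100530, another stefin A gene, stood at 78.7 to 111 CPM in anti-Gr1-labelled libraries, against 0 to 0.526 CPM in isotype-labelled ones. The 4 members that did not pass were Mrgpra2a, Clec4d, G0s2 and Wfdc21.

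Granule protein genes were also raised. Of 15 secondary and tertiary granule genes, which encode proteins made late in granulocyte maturation, 14 rose (median log2 2.99), 14 without anti-Gr1 replicate 3 and 11 without isotype replicate 3. Ngp, whose promoter is printed above, stood at 426, 448 and 653 CPM in anti-Gr1-labelled libraries, against 2.51, 2.19 and 1.23 CPM in isotype-labelled ones (log2 8.31 ± 0.63, adjusted p = 0.00102, edgeR). Ltf stood at 201, 188 and 283 CPM in anti-Gr1-labelled libraries, against 0.808, 1.40 and 0.739 CPM in isotype-labelled ones (log2 8.06 ± 0.67). The groups did not overlap for either gene, which was a condition of the rule for the largest rises that named both. Anti-Gr1 replicate 3 was the highest library for both. Camp, the cathelicidin of mice, rose by log2 6.41 ± 0.76, and Mmp8, a neutrophil collagenase, by log2 6.39 ± 0.82. Olfm4 (olfactomedin 4) rose by log2 6.39 ± 0.65. Mmp25, a membrane-bound metalloproteinase of leukocytes outside these lists, stood at 14.8, 15.8 and 24.5 CPM in anti-Gr1-labelled libraries, against 0.359, 0.0877 and 0.123 CPM in isotype-labelled ones. Lcn2 (lipocalin 2), which hepatocytes also make in the acute phase, was the member that did not pass, at 4277 ± 702 CPM in anti-Gr1-labelled libraries and 2435 ± 616 CPM in isotype-labelled ones. Of 12 genes of primary granules and precursors (median log2 3.47) 8 rose, 4 without anti-Gr1 replicate 3 and 2 without isotype replicate 3. Mpo (myeloperoxidase) averaged 36.9 ± 14.6 CPM in anti-Gr1-labelled libraries and 1.03 ± 0.234 CPM in isotype-labelled ones (log2 5.21 ± 0.82, adjusted p = 0.00471), and did not pass without isotype replicate 3. Prtn3 (proteinase 3) and Tuba4a (a tubulin) fell by 1.40 and 1.48 on the log2 scale, and neither passed with either replicate 3 left out. The 12 genes held 0.0263% to 0.0325% of counts in anti-Gr1-labelled libraries and 0.0298% to 0.0319% in isotype-labelled ones, so this summed share overlapped. Together the mature neutrophil genes held 0.394%, 0.454% and 0.562% of counts in anti-Gr1-labelled libraries, against 0.0508%, 0.0535% and 0.0403% in isotype-labelled ones. In bulk samples more cells of a type and more of their RNA per cell cannot be told apart.

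**Figure D2:**
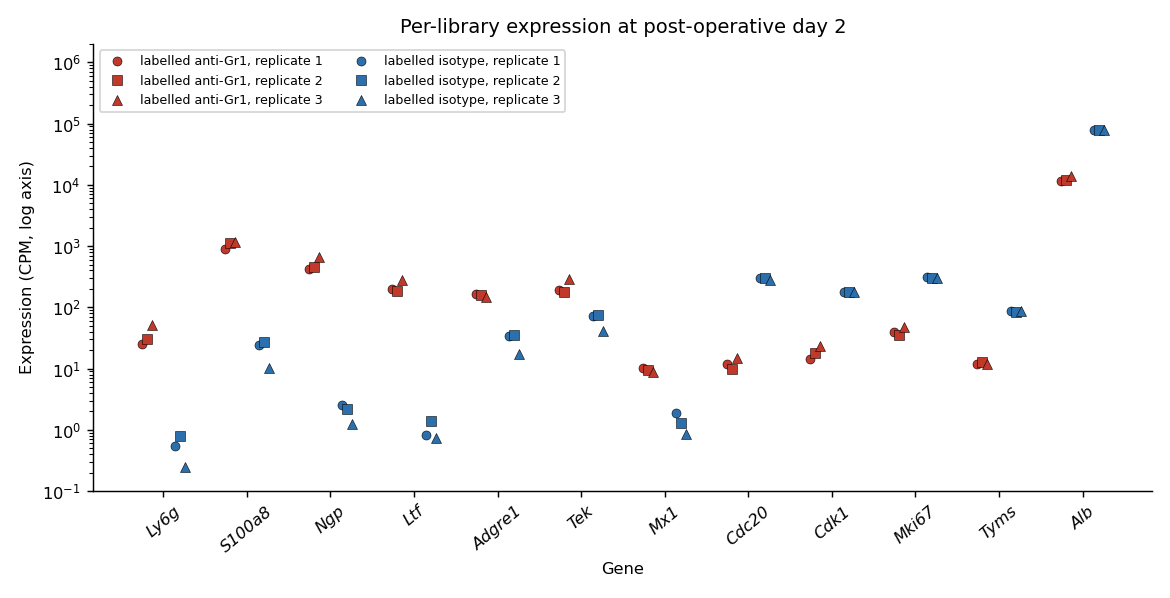
Expression of 12 genes in each POD2 library (CPM, log y axis), with anti-Gr1-labelled libraries left and isotype right of each gene's tick and marker shapes for replicates. Ly6g, S100a8, Ngp, Ltf, Adgre1, Tek and Mx1 are higher in every anti-Gr1-labelled library and Cdc20, Cdk1, Mki67, Tyms and Alb lower, but Alb did not pass the test.

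Of 25 monocyte and recruited macrophage genes, 19 rose (median log2 2.11), 7 without anti-Gr1 replicate 3 and 2 without isotype replicate 3. Their summed share overlapped, at 0.963% to 1.41% of counts in anti-Gr1-labelled libraries and 1.11% to 1.25% in isotype-labelled ones. The list holds Apoe, which hepatocytes also make, at 7789 ± 1685 CPM in anti-Gr1-labelled libraries and 15580 ± 2540 CPM in isotype-labelled ones. Mmp12, a macrophage elastase, stood at 123, 130 and 326 CPM in anti-Gr1-labelled libraries, against 5.56, 5.70 and 1.85 CPM in isotype-labelled ones (log2 5.97 ± 0.69, adjusted p = 0.00217, edgeR). Ms4a4c averaged 25.7 ± 1.73 CPM in anti-Gr1-labelled libraries and 2.79 ± 1.15 CPM in isotype-labelled ones (log2 3.27 ± 0.53), and Itgax, the integrin CD11c, rose by log2 3.37 ± 0.56. Of 17 Kupffer cell genes, 14 rose (median log2 1.72), 3 without anti-Gr1 replicate 3 and 1 without isotype replicate 3, and they held 0.557%, 0.576% and 0.863% of counts in anti-Gr1-labelled libraries, against 0.212%, 0.216% and 0.109% in isotype-labelled ones. Adgre1, which encodes the macrophage antigen F4/80, stood at 165, 160 and 147 CPM in anti-Gr1-labelled libraries, against 33.6, 35.9 and 17.1 CPM in isotype-labelled ones (log2 2.69 ± 0.44, adjusted p = 0.00498). Spic, a transcription factor of iron-recycling macrophages, rose by log2 2.39 ± 0.43. Cd5l, a secreted macrophage protein, averaged 1973 ± 631 CPM in anti-Gr1-labelled libraries and 380 ± 136 CPM in isotype-labelled ones (log2 2.49 ± 0.46), and Il18bp, an inhibitor of interleukin 18, rose by log2 2.06 ± 0.32. Clec4f, the lectin used as a Kupffer cell marker, did not pass, at 757 ± 267 CPM in anti-Gr1-labelled libraries and 376 ± 65.8 CPM in isotype-labelled ones (adjusted p = 0.0926), and Cd163 and C6 did not pass either. At POD1 the Kupffer cell list held 0.89% to 1.67% of counts in anti-Gr1-labelled libraries and 0.946% to 1.24% in isotype-labelled ones. The isotype libraries of POD2 thus stood below all others for this list. The POD1 range of anti-Gr1-labelled libraries includes the library nearly identical to anti-Gr1 POD2 replicate 3. Mmp12 and Adgre1 passed with either replicate 3 left out, Ms4a4c, Itgax, Spic and Il18bp passed without anti-Gr1 replicate 3 but not without isotype replicate 3, and Cd5l passed in neither of these fits.

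Sinusoidal endothelial genes were higher across nearly the whole list. Of 21 genes, 19 rose (median log2 1.56), 4 without anti-Gr1 replicate 3 and 1 without isotype replicate 3, and all 21 had groups that did not overlap, where 30.4% of genes tested were higher in this way. Tek, the angiopoietin receptor Tie2, stood at 193, 180 and 290 CPM in anti-Gr1-labelled libraries, against 73.4, 75.0 and 41.5 CPM in isotype-labelled ones (log2 2.15 ± 0.36, adjusted p = 0.00518, edgeR). Oit3 averaged 362 ± 78.7 CPM in anti-Gr1-labelled libraries and 89.1 ± 14.2 CPM in isotype-labelled ones (log2 2.14 ± 0.36). Fcgr2b, the inhibitory Fc receptor of these cells, rose by log2 1.81 ± 0.31. Bmp2, the ligand that endothelial cells send to hepatocytes to raise hepcidin, averaged 214 ± 67.8 CPM in anti-Gr1-labelled libraries and 57.4 ± 4.87 CPM in isotype-labelled ones (log2 2.01 ± 0.36). Oit3, Fcgr2b and Bmp2 did not pass without isotype replicate 3. Egfl7 and Dnase1l3, at log2 0.90 and 0.98, were the members that did not pass. At POD1 the list held 1.07% to 1.69% of counts in anti-Gr1-labelled libraries and 1.67% to 2.03% in isotype-labelled ones. At POD2 these shares were 0.799% to 1.34% and 0.216% to 0.384%, so the isotype libraries of POD2 stood below all others. Here too the POD1 range of anti-Gr1-labelled libraries includes the library nearly identical to anti-Gr1 POD2 replicate 3.

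Smaller shares of the markers of the remaining cell types passed. Of 22 stellate cell and fibroblast genes (median log2 0.84) 4 rose (18.2%, near the 16.1% of all genes called higher), namely Dcn (decorin), Pdgfra and the basement membrane collagens Col4a1 and Col4a2, by log2 1.53 ± 0.32, 1.44 ± 0.35, 1.30 ± 0.39 and 1.16 ± 0.37. Of 22 T and NK cell genes (median log2 1.02) 9 rose (40.9%), among them the granzymes Gzma, at 10.4 ± 2.59 CPM in anti-Gr1-labelled libraries and 1.16 ± 0.271 CPM in isotype-labelled ones, and Gzmb, at 6.75 ± 0.0313 CPM in anti-Gr1-labelled libraries and 0.734 ± 0.342 CPM in isotype-labelled ones. The activating receptor gene Klrk1 rose by log2 1.84 ± 0.27, the chemokine gene Ccl5 by log2 2.16 ± 0.40, while the T cell receptor subunits Cd3d and Cd3e stood at log2 0.31 and 0.38 and did not pass. Of 19 B and plasma cell genes (median log2 0.38) only Bank1 rose (5.26%, below that share), by log2 1.28 ± 0.31. Of 13 platelet genes (median log2 1.00) 4 rose (30.8%), Tubb1, Gp6, Gp1ba and Itga2b. No member of the 14 cholangiocyte and 11 erythroid genes passed, with medians of log2 0.26 and 0.05. Without anti-Gr1 replicate 3 and without isotype replicate 3 these counts were 1 and 0 for stellate cells, 4 and 2 for T and NK cells, and 0 and 0 for B cells and platelets. None of the 30 pancreatic acinar genes passed (median log2 -1.83). Cela1, an elastase of acinar cells, stood at 2363, 2631 and 569 CPM in anti-Gr1-labelled libraries, against 5111, 5247 and 23450 CPM in isotype-labelled ones. Its level split replicate 3 from the other libraries within each group, in opposite directions.

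**Figure D3:**
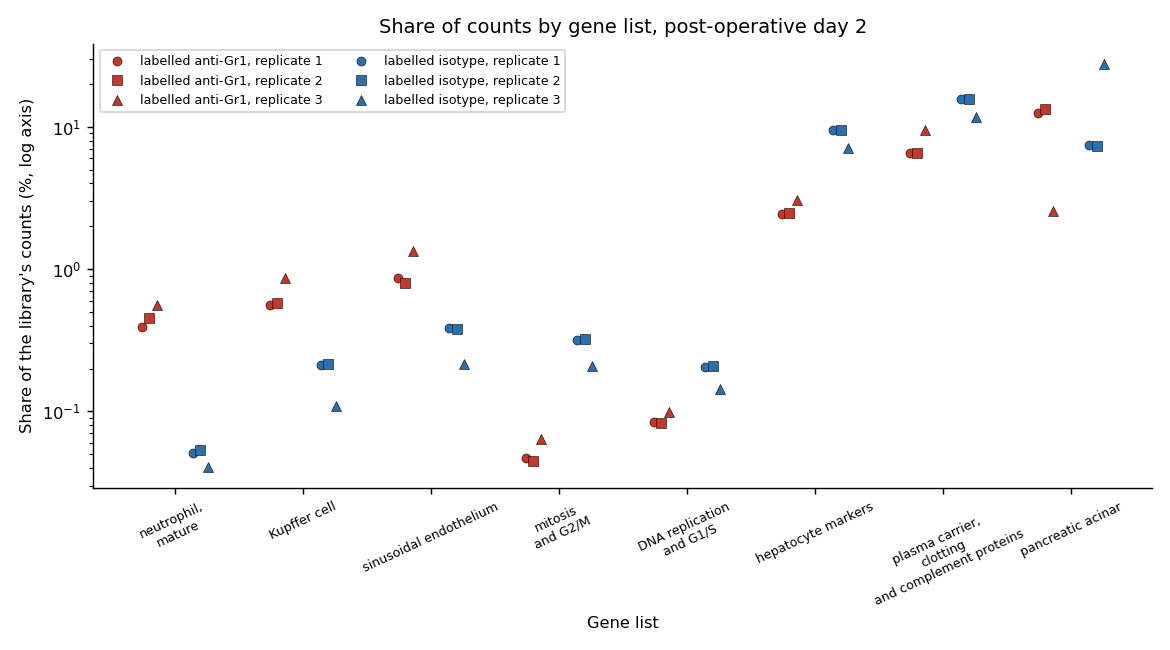
Share of each POD2 library's counts held by 8 gene lists (percent, log y axis), with anti-Gr1-labelled libraries left and isotype right of each tick and marker shapes for replicates. Mitosis genes hold 0.0451% to 0.0635% in anti-Gr1-labelled libraries and 0.208% to 0.323% in isotype-labelled ones, and pancreatic acinar genes overlap between the groups.

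Mitosis genes had the lowest median of the 44 lists. Of 46 tested, 43 fell and none rose in anti-Gr1-labelled libraries, with a median log2 fold change of -2.69, against a background of 9.22% of genes called lower. As labelled 44 fell, 35 without anti-Gr1 replicate 3, 38 without isotype replicate 3, and without scaling factors 39. Cdc20 stood at 11.7, 9.95 and 14.7 CPM in anti-Gr1-labelled libraries, against 297, 303.9 and 278 CPM in isotype-labelled ones. The groups were far apart and the isotype libraries differed little among themselves. The log2 fold change of Cdc20 was -4.39 ± 0.36, a level 21-fold lower, with an adjusted p of 0.00102 (edgeR). Cdk1 stood at 14.2, 17.9 and 23.6 CPM in anti-Gr1-labelled libraries, against 181, 178 and 180 CPM in isotype-labelled ones (log2 -3.06 ± 0.33). Aurka stood at 9.58, 7.33 and 11.6 CPM in anti-Gr1-labelled libraries, against 126, 121 and 121 CPM in isotype-labelled ones (log2 -3.50 ± 0.29). All 3 genes, whose promoters are printed above, were lower in every anti-Gr1-labelled library. Kif2c, a kinesin that trims microtubules at the centromere, averaged 6.18 ± 1.07 CPM in anti-Gr1-labelled libraries and 52.3 ± 0.943 CPM in isotype-labelled ones (log2 -2.96 ± 0.25), and Spc25, a kinetochore subunit, fell by 3.24 ± 0.34 on the log2 scale.

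Regulators and markers of proliferation moved with them. Foxm1, the transcription factor that drives mitotic genes, averaged 10.4 ± 1.31 CPM in anti-Gr1-labelled libraries and 84.6 ± 5.98 CPM in isotype-labelled ones (log2 -2.92 ± 0.43, adjusted p = 0.00367, edgeR). Ccnb1, the mitotic cyclin, averaged 4.10 ± 1.45 CPM in anti-Gr1-labelled libraries and 36.9 ± 2.21 CPM in isotype-labelled ones (log2 -3.07 ± 0.45). Ccna2, a cyclin of S phase and G2, fell by 2.44 ± 0.48 on the log2 scale and did not pass without anti-Gr1 replicate 3. Mki67, which encodes the proliferation antigen Ki-67, stood at 38.9, 35.5 and 48.6 CPM in anti-Gr1-labelled libraries, against 317, 306 and 297 CPM in isotype-labelled ones (log2 -2.71 ± 0.58, adjusted p = 0.0129). Its groups were far apart, but it did not pass with either replicate 3 left out. The 3 members of the list that did not pass were Kif23 (log2 -0.69), Cdc25b (-0.10) and Mybl2 (0.13). Together the 46 genes held 0.0468%, 0.0451% and 0.0635% of counts in anti-Gr1-labelled libraries, against 0.317%, 0.323% and 0.208% in isotype-labelled ones. At POD1 they held 0.0329% to 0.063% in anti-Gr1-labelled libraries and 0.0321% to 0.0427% in isotype-labelled ones. The isotype libraries of POD2 thus stood above all others. The POD1 range of anti-Gr1-labelled libraries includes the library nearly identical to anti-Gr1 POD2 replicate 3.

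The 15 genes with the largest falls, among called genes whose groups did not overlap and whose mean level over the POD2 libraries was at least 1 on the log2 CPM scale, included, beside Cdc20, Lockd, a noncoding RNA next to the cell cycle inhibitor gene Cdkn1b, at log2 -5.08 ± 0.61, Cenpm and Cenpp, which encode centromere proteins, at log2 -4.09 ± 0.33 and -3.98 ± 0.43, Cdca3, Cdca2 and Ckap2, cell division and cytoskeleton genes, at log2 -4.00, -3.62 and -3.81, and Mxd3 and Arhgef39 at log2 -3.66 and -3.62. Cenpm stood at 3.51, 3.08 and 3.95 CPM in anti-Gr1-labelled libraries, against 56.1, 57.6 and 76.2 CPM in isotype-labelled ones. Outside the cell cycle, the rule named Gstm3 (-4.78 ± 1.24), Cyp2b9 (-4.40 ± 1.02), the melatonin receptor gene Mtnr1a (-4.08 ± 0.82), the zinc transporter gene Slc30a3 (-4.00 ± 1.1), Cox6b2 (-3.92 ± 0.65) and Neurl1b (-3.87 ± 0.49). Gstm3, Cyp2b9 and Slc30a3 passed in neither fit that left out a replicate 3, and Mtnr1a and Cox6b2 did not pass without anti-Gr1 replicate 3.

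DNA replication genes were lower as well. Of 45 tested, 30 fell and none rose (median log2 -1.33). As labelled 40 fell, 22 without anti-Gr1 replicate 3, 24 without isotype replicate 3, and without scaling factors 23. Tyms, the thymidylate synthase, stood at 11.8, 12.7 and 12.1 CPM in anti-Gr1-labelled libraries, against 85.9, 84.5 and 86.3 CPM in isotype-labelled ones (log2 -2.70 ± 0.23, adjusted p = 0.00106, edgeR). The 3 libraries of each group lay close together. Rfc5, a subunit of the clamp loader, averaged 13.1 ± 1.80 CPM in anti-Gr1-labelled libraries and 54.9 ± 3.73 CPM in isotype-labelled ones (log2 -1.95 ± 0.15). Prim1, the primase, fell by 2.41 ± 0.28 and Dut, which removes dUTP, by 1.95 ± 0.22 on the log2 scale. Mcm7 averaged 28.8 ± 1.1 CPM in anti-Gr1-labelled libraries and 129 ± 10.7 CPM in isotype-labelled ones (log2 -2.05 ± 0.24). Pcna, the sliding clamp, stood at 41.5, 49.1 and 48.2 CPM in anti-Gr1-labelled libraries, against 104, 105 and 98.7 CPM in isotype-labelled ones (log2 -1.0 ± 0.19, adjusted p = 0.00855). Its groups did not overlap, but it did not pass with either replicate 3 left out or without scaling factors. Ccnd1, the G1 cyclin, averaged 47.2 ± 8.48 CPM in anti-Gr1-labelled libraries and 76.0 ± 21.7 CPM in isotype-labelled ones and did not pass (log2 -0.57 ± 0.41, adjusted p = 0.328).

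Inhibitors of the cycle and p53 targets were split. Of 26 tested 2 rose (7.69%, beside 16.1% of all genes) and 4 fell (15.4%, beside 9.22%), with a median log2 fold change of -0.09, and 0.34 without scaling factors. Sesn1 (sestrin 1) and Pmaip1 (the BH3-only protein Noxa) rose by log2 1.27 ± 0.20 and 2.24 ± 0.41. Cdkn2c, which encodes the CDK4 and CDK6 inhibitor p18 and is itself transcribed in cycling cells, averaged 10.5 ± 2.21 CPM in anti-Gr1-labelled libraries and 68.9 ± 11.1 CPM in isotype-labelled ones (log2 -2.60 ± 0.28, adjusted p = 0.00168, edgeR). Aen, Phlda3 and Cdkn2d fell by 0.90, 1.71 and 0.79 on the log2 scale. Cdkn1a, the p21 gene, averaged 60.6 ± 2.07 CPM in anti-Gr1-labelled libraries and 116 ± 6.74 CPM in isotype-labelled ones and did not pass (log2 -0.82 ± 0.44, adjusted p = 0.202). The list had 2 higher and 1 lower without anti-Gr1 replicate 3 and 1 higher and 2 lower without isotype replicate 3.

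**Figure D4:**
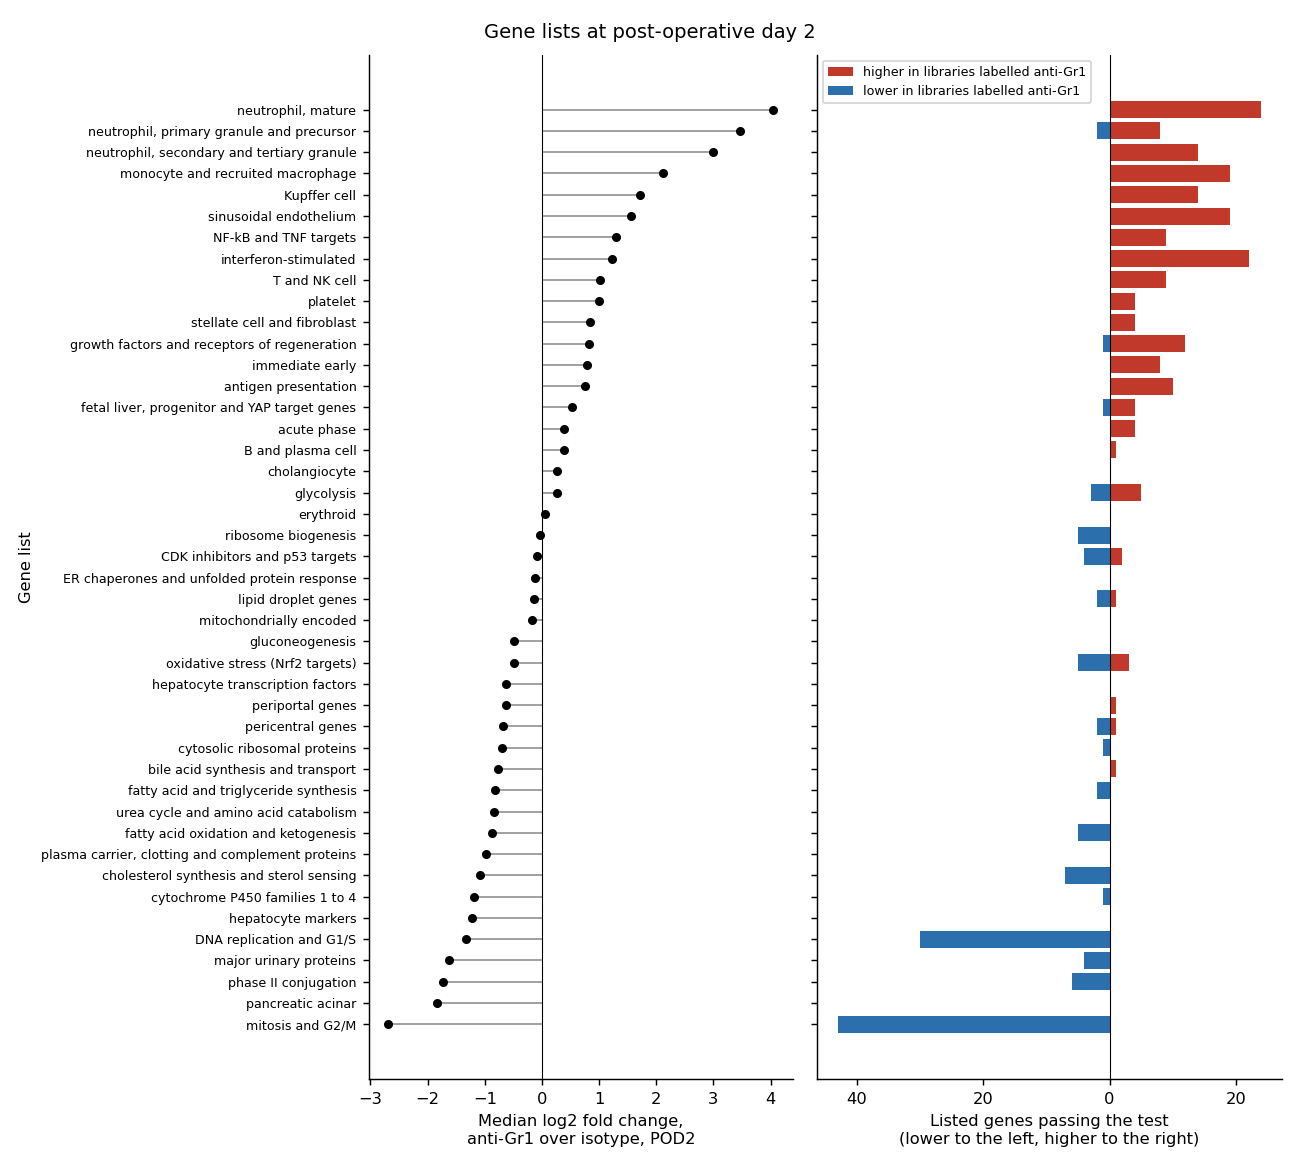
Median log2 fold change (left, anti-Gr1 over isotype, POD2) and number of listed genes that passed the test (right) for the 44 gene lists, ordered by the median. Mature neutrophil genes are at the top with a median of 4.05 and 24 genes higher, and mitosis genes at the bottom with -2.69 and 43 lower.

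Of 38 interferon-stimulated genes tested 22 rose and none fell (median log2 1.23), 15 without anti-Gr1 replicate 3 and 13 without isotype replicate 3. Mx1, an antiviral GTPase, stood at 10.1, 9.62 and 8.66 CPM in anti-Gr1-labelled libraries, against 1.89, 1.31 and 0.863 CPM in isotype-labelled ones (log2 2.95 ± 0.41, adjusted p = 0.00311, edgeR). Rtp4 averaged 78.7 ± 5.30 CPM in anti-Gr1-labelled libraries and 23.3 ± 9.57 CPM in isotype-labelled ones (log2 1.87 ± 0.27). Oas1g, an oligoadenylate synthetase with close copies, and Gbp3, a guanylate-binding protein, rose by log2 2.28 ± 0.33 and 1.84 ± 0.29. These 4 genes passed with either replicate 3 left out. Of 18 antigen presentation genes 10 rose (median log2 0.75), and none did with either replicate 3 left out. They included the class II chains H2-Ab1 and H2-Aa, at log2 2.00 ± 0.39 and 1.89 ± 0.44, the class II loading factor H2-DMa, at log2 1.48 ± 0.34, and Ciita, the class II transactivator, at 6.81 ± 1.25 CPM in anti-Gr1-labelled libraries and 1.34 ± 0.0183 CPM in isotype-labelled ones. Class II genes are transcribed in macrophages and B cells, whose markers are given above, and the part of these cells in the class II values was not tested.

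Inflammatory signalling genes were raised in part. Of 23 NF-kB and TNF targets 9 rose and none fell (median log2 1.29), 2 without anti-Gr1 replicate 3 and 0 without isotype replicate 3. Vcam1, a vascular adhesion molecule that Kupffer cells also carry, stood at 294, 305 and 461 CPM in anti-Gr1-labelled libraries, against 42.7, 43.8 and 17.9 CPM in isotype-labelled ones (log2 3.75 ± 0.71, adjusted p = 0.00827, edgeR). Its groups did not overlap. Birc3, an inhibitor of apoptosis, rose by log2 2.19 ± 0.40, the TNF receptor gene Tnfrsf1b by 1.76 ± 0.34, and Nfkb1 by 1.40 ± 0.28. Of 24 immediate early genes 8 rose (median log2 0.79), 2 without anti-Gr1 replicate 3 and 1 without isotype replicate 3. Klf4, a transcription factor that endothelial cells and macrophages also use, stood at 124, 117 and 88.6 CPM in anti-Gr1-labelled libraries, against 38.5, 42.1 and 24.9 CPM in isotype-labelled ones (log2 1.79 ± 0.30). Egr2 rose by log2 1.86 ± 0.33, Fosl2, an AP-1 subunit, by 1.56 ± 0.43 and Klf10, a TGF-beta response gene, by 0.92 ± 0.24. Myc overlapped between the groups, at 51.1 to 64.3 CPM in anti-Gr1-labelled libraries and 40.9 to 66.9 CPM in isotype-labelled ones.

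The acute phase list (median log2 0.39) held 4 genes that rose of 32 (12.5%, below the 16.1% of all genes called higher), and these were receptors: Il6st and Il6ra, the signalling and binding chains of the interleukin 6 receptor, Cd14, the lipopolysaccharide co-receptor, and Il1r1, the interleukin 1 receptor. Il6st averaged 787 ± 276 CPM in anti-Gr1-labelled libraries and 232 ± 42.3 CPM in isotype-labelled ones (log2 1.87 ± 0.44, adjusted p = 0.0171, edgeR), and Il6ra rose by log2 0.79 ± 0.21. Cd14 and Il1r1 rose by log2 2.04 ± 0.62 and 1.54 ± 0.48. None of the 4 passed with either replicate 3 left out. No secreted acute phase protein of the list passed. Saa1 (serum amyloid A) averaged 3440 ± 805 CPM in anti-Gr1-labelled libraries and 2002 ± 304 CPM in isotype-labelled ones (adjusted p = 0.48), and Socs3, the feedback inhibitor of interleukin 6 signalling, 378 ± 23.8 CPM in anti-Gr1-labelled libraries and 338 ± 3.33 CPM in isotype-labelled ones (adjusted p = 0.569).

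Among 35 growth factor and receptor genes of regeneration 12 rose and 1 fell (median log2 0.83), 2 rose without anti-Gr1 replicate 3 and 1 without isotype replicate 3. Flt1, a VEGF receptor of endothelium, stood at 155, 138 and 202 CPM in anti-Gr1-labelled libraries, against 63.4, 59.2 and 40.8 CPM in isotype-labelled ones (log2 1.88 ± 0.37, adjusted p = 0.00933, edgeR). Tgfbr2, a TGF-beta receptor, averaged 198 ± 34.0 CPM in anti-Gr1-labelled libraries and 62.2 ± 26.1 CPM in isotype-labelled ones (log2 1.78 ± 0.30). Wnt9b, a Wnt ligand of central vein endothelium, averaged 45.1 ± 11.6 CPM in anti-Gr1-labelled libraries and 14.3 ± 5.78 CPM in isotype-labelled ones (log2 1.75 ± 0.35). Osmr, the oncostatin M receptor, rose by log2 1.55 ± 0.29. Tnfrsf12a, the TWEAK receptor Fn14 that regenerating liver induces, fell by 1.36 ± 0.40 on the log2 scale. Egfr overlapped between the groups, at 227 to 417 CPM in anti-Gr1-labelled libraries and 404 to 641 CPM in isotype-labelled ones (adjusted p = 0.734). Sinusoidal endothelial genes held 0.87%, 0.799% and 1.34% of counts in anti-Gr1-labelled libraries, against 0.384%, 0.377% and 0.216% in isotype-labelled ones, and their part in the endothelial receptors and ligands was not tested.

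Of 22 fetal liver, progenitor and YAP target genes 4 rose and 1 fell (median log2 0.52), or 18.2% and 4.55%, beside 16.1% and 9.22% of all genes. Among them Axl, a receptor tyrosine kinase also found on macrophages, Ctgf, a matricellular YAP target, and Amotl2, an angiomotin, rose by log2 1.99 ± 0.32, 2.06 ± 0.61 and 0.98 ± 0.23. Afp, the fetal albumin that reappears in regenerating liver, stood at 2.63, 2.95 and 2.01 CPM in anti-Gr1-labelled libraries, against 18.9, 17.3 and 11.9 CPM in isotype-labelled ones (log2 -2.52 ± 0.39, adjusted p = 0.00429, edgeR). Its groups did not overlap, and it passed with either replicate 3 left out. The list had 3 higher without anti-Gr1 replicate 3 and 2 without isotype replicate 3.

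Hepatocyte genes stood at lower levels in anti-Gr1-labelled libraries, and few passed the test. Of 13 hepatocyte markers, which check the labelled cell type, none passed, although 12 had groups that did not overlap, where 33.9% of genes tested were lower in this way (median log2 -1.22). They held 2.45%, 2.47% and 3.04% of counts in anti-Gr1-labelled libraries, against 9.48%, 9.52% and 7.13% in isotype-labelled ones. Alb (albumin) stood at 11400, 11920 and 13880 CPM in anti-Gr1-labelled libraries, against 77960, 77880 and 79640 CPM in isotype-labelled ones. The groups did not overlap, yet the log2 fold change of -2.51 ± 1.40 did not pass (adjusted p = 0.218, edgeR). The spread shared with the POD1 libraries entered that test. In the POD2 libraries alone with pairs summed 8 of the 13 fell, in a fit that called 19.5% of all genes lower and 38.2% in either direction, and without the POD1 library that matched a POD2 library 6 fell, beside 12.3% of all genes lower and 30.3% in either direction. Apoa1, the main protein of HDL, averaged 3373 ± 31.0 CPM in anti-Gr1-labelled libraries and 14830 ± 1156 CPM in isotype-labelled ones (adjusted p = 0.116), and Ttr (transthyretin) 1443 ± 126 CPM in anti-Gr1-labelled libraries and 5762 ± 809 CPM in isotype-labelled ones (adjusted p = 0.174). Hnf4a, a transcription factor of hepatocyte identity, averaged 266 ± 23.1 CPM in anti-Gr1-labelled libraries and 529 ± 41.9 CPM in isotype-labelled ones (adjusted p = 0.353). None of 16 hepatocyte transcription factors passed (median log2 -0.63), and 8 fell in the POD2 libraries alone, beside the same 19.5%. The shares of mature neutrophil, Kupffer cell and endothelial genes moved the other way, as given above, and their part in the hepatocyte and cell cycle values was not tested.

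None of 25 plasma carrier, clotting and complement genes passed (median log2 -0.99), while 23 had groups that did not overlap, beside 33.9% of all genes lower in this way, and 15 fell in the POD2 libraries alone, beside 19.5% of all genes. They held 6.53%, 6.6% and 9.55% of counts in anti-Gr1-labelled libraries, against 15.8%, 15.8% and 11.7% in isotype-labelled ones. Of 14 major urinary proteins (median log2 -1.63), pheromone carriers secreted by the liver, Mup16, Mup17, Mup18 and Mup9 fell, by 2.24, 2.20, 2.07 and 1.68 on the log2 scale, 2 of them in each fit without a replicate 3. Their genes are near-identical, so reads can be split between copies. Of 30 cytochrome P450 genes Cyp2b9 fell (3.33%, below the 9.22% of all genes), and 19 fell in the POD2 libraries alone, again beside 19.5% (median log2 -1.18). Of 25 phase II conjugation genes 6 fell (median log2 -1.73), all of them glutathione S-transferases, and none did with either replicate 3 left out. Gstm1 stood at 128, 119 and 134 CPM in anti-Gr1-labelled libraries, against 811, 781 and 1096 CPM in isotype-labelled ones (log2 -2.76 ± 0.55, adjusted p = 0.0098, edgeR). Gstm2, Gstm6, Gstp1 and Gsta2 fell by 2.00, 3.00, 2.11 and 3.44 on the log2 scale, beside Gstm3 above, and the mu-class genes are close copies. Of 23 bile acid genes (median log2 -0.77) 17 had lower groups that did not overlap, beside 33.9% of all genes, and 2 had higher ones. In the POD2 libraries alone 13 fell, beside 19.5% of all genes, and 2 rose. With both days fitted only Abcc4, an efflux pump, passed. Abcc4 rose by log2 1.59 ± 0.36 (4.35%, below the 16.1% of all genes called higher). It passed in neither fit without a replicate 3.

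Cholesterol synthesis genes that passed were lower. Of 24 cholesterol synthesis and sterol sensing genes 7 fell (29.2%, beside 9.22% of all genes called lower) and none rose (median log2 -1.09), 1 with either replicate 3 left out and 2 without scaling factors. Pmvk (phosphomevalonate kinase) stood at 17.5, 20.8 and 17.7 CPM in anti-Gr1-labelled libraries, against 60.9, 58.5 and 77.8 CPM in isotype-labelled ones (log2 -1.78 ± 0.22, adjusted p = 0.00242, edgeR), and passed in all of these fits. Lss, Fdps and Mvk, enzymes of the same pathway, fell by 1.20, 1.49 and 1.25 on the log2 scale. Of 19 fatty acid and triglyceride synthesis genes (median log2 -0.815) Acaca (acetyl-CoA carboxylase) and Dgat1, which makes triglyceride, fell by 1.1 and 0.83, but not with either replicate 3 left out or without scaling factors. These 2 make up 10.5% of the list, near the 9.22% of all genes. Of 30 fatty acid oxidation and ketogenesis genes (median log2 -0.87) 5 fell (16.7%), none with either replicate 3 left out. Among them Etfb, Hadha, Acadl and Eci2 fell by 1.67, 1.02, 0.76 and 1.05 on the log2 scale. In the oxidation list 26 genes had lower groups that did not overlap, beside 33.9% of all genes, and 1 had higher ones. In the POD2 libraries alone with pairs summed 21 of its genes fell, beside 19.5% of all genes. Of 17 lipid droplet genes Fitm1 and Bscl2 fell by 2.91 and 0.85 (11.8% of the list, near the share of all genes), and Cd36, a fatty acid transporter that macrophages and endothelium also carry, rose. Cd36 stood at 236, 249 and 240 CPM in anti-Gr1-labelled libraries, against 61.6, 67.2 and 36.1 CPM in isotype-labelled ones (log2 2.38 ± 0.29). Bscl2 did not pass with either replicate 3 left out or without scaling factors. The list's median was -0.14, and 0.26 without scaling factors.

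Glycolysis genes were divided, and the median of amino acid catabolism genes was lower although none passed. Of 20 glycolysis genes (median log2 0.26) 5 rose and 3 fell (25% and 15%, beside 16.1% and 9.22% of all genes), 1 and 0 without anti-Gr1 replicate 3, 1 and 1 without isotype replicate 3, and 8 and 0 without scaling factors. G6pdx, which feeds the pentose phosphate pathway, stood at 106, 106 and 140 CPM in anti-Gr1-labelled libraries, against 24.7, 23.1 and 20 CPM in isotype-labelled ones (log2 2.60 ± 0.25, adjusted p = 0.00142, edgeR). Hk1 and Pfkp, forms that hepatocytes make little of, the lactate exporter gene Slc16a3, and Pkm rose by log2 1.30, 1.52, 2.21 and 1.29, and Tpi1, Pgk1 and Eno1 fell by 1.1, 0.90 and 0.87 on the log2 scale. None of 33 urea cycle and amino acid catabolism genes (median log2 -0.85) or 11 gluconeogenesis genes (-0.48) passed. In the urea cycle list 27 genes had lower groups that did not overlap, beside 33.9% of all genes, and 1 had higher ones. In the POD2 libraries alone with pairs summed 17 of its genes fell, beside 19.5% of all genes. Of 21 pericentral genes (median log2 -0.69) Slc1a4, an amino acid transporter, and Sp5, a Wnt target, fell by 2.51 and 1.90 and Nkd1, a Wnt inhibitor, rose by log2 1.19, and none of the 3 passed with either replicate 3 left out. Of 20 periportal genes (median log2 -0.64) Ctsc, a lysosomal protease that myeloid cells also make, rose by log2 2.05 ± 0.31 (5% of the list). The pericentral calls made up 9.52% lower and 4.76% higher. Beside them stand 9.22% of all genes called lower and 16.1% called higher. By these calls neither list was above the share of all genes by much. Lower groups that did not overlap were found for 17 pericentral and 15 periportal genes, beside 33.9% of all genes. Higher ones were found for 1 and 3, beside 30.4%. In the POD2 libraries alone with pairs summed 11 and 8 fell, beside 19.5% of all genes, and 1 and 2 rose.

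Oxidative stress genes were called in both directions. Of 19 Nrf2 targets (median log2 -0.49) 3 rose (15.8%, beside 16.1% of all genes) and 5 fell (26.3%, beside 9.22%). Those that rose were Hmox1 (heme oxygenase), Abcc4 and Cbr3, and Gsr, Sod1, Gpx4, Txnrd1 and Srxn1 fell, by 0.75, 1.40, 0.84, 0.71 and 0.61 on the log2 scale, with none passing with either replicate 3 left out and none of the falls passing without scaling factors. Hmox1 averaged 537 ± 57.3 CPM in anti-Gr1-labelled libraries and 158 ± 76.7 CPM in isotype-labelled ones (log2 1.88 ± 0.49). Of 28 ribosome biogenesis genes (median log2 -0.04, and 0.38 without scaling factors) 5 fell (17.9%, beside 9.22%), namely Nop58, Nop16, Wdr12, Nolc1 and Ftsj3, by 0.51 to 1.06 on the log2 scale, none of them with either replicate 3 left out or without scaling factors. None of 24 ER chaperone and unfolded protein response genes (median log2 -0.13) or 7 mitochondrially encoded genes (-0.18) passed, and both medians were above 0 without scaling factors, at 0.33 and 0.26. Of 35 cytosolic ribosomal proteins (median log2 -0.71) Rpl15 fell, by 0.68 (2.86%, below the 9.22% of all genes called lower). It did not pass with either replicate 3 left out or without scaling factors.

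The effect at POD2 was set beside that at POD1 in the same fit. At POD1 95 genes rose and 20 fell (0.735% of genes tested), and 877 genes (5.60%) had effects that differed between the days, 549 higher (3.51%) and 328 lower (2.1%) at POD2. Without the POD1 library that matched a POD2 library 916 of 15588 genes differed between the days. No gene of the mitosis list passed at POD1 (median log2 0.39), and 39 of 46 had a lower effect at POD2. For DNA replication 21 of 45 had a lower effect at POD2 (POD1 median -0.08). Endothelial genes had a POD1 median of -0.29, and 10 of 21 had a higher effect at POD2, as had 3 of 17 Kupffer cell genes and 6 of 35 growth factor genes. Mature neutrophil genes already had 13 higher of 28 at POD1 (median log2 2.31), and 3 had a higher effect at POD2. The count of 877 was 0 (edgeR) without anti-Gr1 POD2 replicate 3 or without isotype POD2 replicate 3, where 2843 and 2553 genes had an unadjusted p under 0.05 and DESeq2 was not run, and 76 without both near-identical libraries that carry different days.

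**Figure D5:**
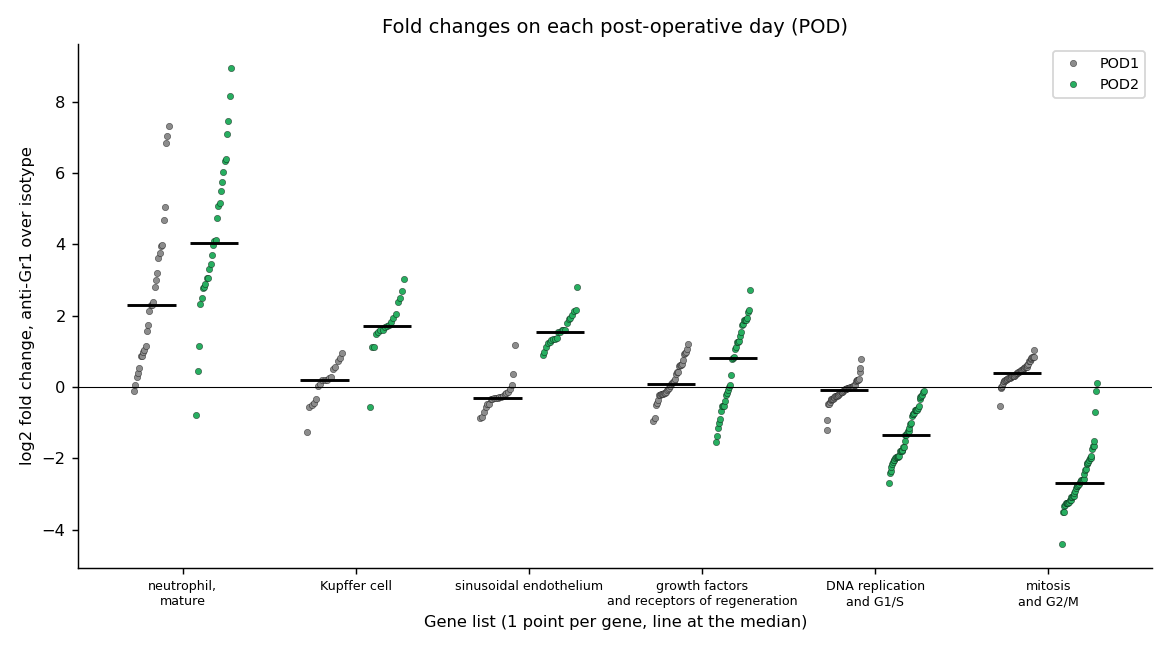
Log2 fold changes (anti-Gr1 over isotype, y axis) of the members of 6 gene lists at POD1 and POD2, 1 point per gene, with a line at the median. Mitosis genes have medians of 0.39 at POD1 and -2.69 at POD2, and mature neutrophil genes 2.31 and 4.05.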

How the data were processed

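Poly(A) RNA of 12 hepatocyte preparations was sequenced, and the authors deposited whole-number counts of reads per gene and library, per the labels. Per the submitters' processing notes cutadapt, STAR, HTSeq and DESeq2 were used with GRCm38, but the sources used here give no version, annotation or strand setting. The table lists 18227 genes, of which 18208 identifiers are in GENCODE M21, and 0 of its columns were left unused. No gene's highest count was under 6, so the table holds no gene with lower counts throughout.

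Counts were fitted with edgeR 4.0.16 in R 4.3.3 (filterByExpr, trimmed-mean scaling, quasi-likelihood F test, 4 groups, Benjamini-Hochberg adjustment, threshold 0.05), with replicates 1 and 2 of each POD2 group summed, so n = 2 columns a group at POD2. Differences are anti-Gr1 over isotype, and the difference between days is that at POD2 minus that at POD1. CPM used the scaling factors of the 12 libraries. The fit was tested on simulated counts with known changes. Alternatives were the libraries as labelled, DESeq2 1.42.0, other scalings, no filter, POD2 alone and single libraries left out. Intervals and SEs cover these samples only.

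The members and the 44 gene lists were chosen with earlier results of these data known. The rule named, in each direction, the 15 called genes with the largest change, a mean log2 CPM of at least 1 and groups that do not overlap, up to 4 members of each list with the smallest p, and a set of regeneration genes. Genes named beyond it were chosen after their values were seen. Some genes that the rule named are not reported here. Values for Mup, Gstm, stefin A, Oas1, Ly6c and histocompatibility genes are uncertain because close copies can share reads. Promoters came from RefSeq (GRCm38.p6).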

Additional observations from a re-analysis of the deposited data

Results flagged for a closer look

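The antibody effect differed between POD2 and POD1 for 877 of 15647 genes by edgeR's test of the difference itself, with anti-Gr1-labelled libraries set against those labelled isotype on each day. The values below are log2 fold changes at POD2 minus those at POD1. Negative ones mean a lower effect at POD2. No difference passed without anti-Gr1 POD2 replicate 3 or without isotype POD2 replicate 3, with 2843 and 2553 genes at an unadjusted p under 0.05 there. The near-identity of anti-Gr1 POD2 replicate 3 with anti-Gr1 POD1 replicate 3 enters each value. Without the POD1 library of that pair 916 differences between days passed by edgeR. The part of the pair in the single values below is not given.

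Among cell division genes the difference was Cdc20 -4.74, Aurka -3.68, Cdk1 -3.32, Ccnb1 -3.90, Kif2c -3.82 and Spc25 -2.72. It was Foxm1 -3.19, Mki67 -3.36, Cdca2 -4.22, Cdca3 -4.34 and Ckap2 -4.00. Centromere and neighbouring regulators gave Cenpm -4.08, Cenpp -4.33, Arhgef39 -4.43, Mxd3 -3.45 and Lockd -4.86. For DNA replication it was Tyms -2.22, Prim1 -2.07, Rfc5 -1.77, Dut -1.64 and Mcm7 -1.83, and for the cell cycle inhibitors Cdkn2c -2.61 and Cdkn2d -1.82.

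Among myeloid genes the difference was Mmp25 3.29, Retnlg 2.50, Ly6c2 1.70, Adgre1 2.43 and Prtn3 -3.75. Among endothelial and stellate genes it was Tek 2.47, Oit3 2.19, Fcgr2b 1.98, Bmp2 2.48, Flt1 2.23, Wnt9b 1.98 and Dcn 1.91, and among lymphocyte genes Klrk1 1.55 and Bank1 2.31. For receptors and early response genes it was Tgfbr2 1.94, Osmr 1.53, Klf4 2.49 and Klf10 1.36. Metabolic genes gave Pmvk -1.86, Lss -1.44, Dgat1 -1.39, Cd36 1.78 and G6pdx 1.39. The remaining genes were Afp -2.17, Nkd1 1.91 and Neurl1b -3.58.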

How the results depend on the processing

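The 3960 calls at POD2 (2518 higher, 1442 lower) and the 877 differences between days depended on how libraries were combined. As labelled there were 6404 calls, 3221 of them lower, and 2539 differences between days. With the replicate number as a block there were 5980, 2986 lower, and 2007. Same-numbered POD2 libraries of the 2 groups correlated by -0.10, -0.20 and -0.26 in their deviations from the group means. These values cannot show whether the numbers pair the samples, because replicates 1 and 2 of each group are near-identical. No label ties a library to its own mouse, so the block was not taken as a paired design. In the POD2 libraries alone as labelled there were 8334 calls (4121 higher, 4213 lower), and with pairs summed 2967 lower. DESeq2 gave 1933 differences between days, and totals without scaling factors gave 442 lower calls at POD2. Without only the POD1 library of the near-identical pair that carries different days there were 4724 calls and 916 differences between days. Without both near-identical libraries that carry different days there were 1650 calls (944 higher, 706 lower) and 76 differences between days. Leaving out each POD2 library in turn gave 806 to 4040 calls, 470 to 2563 higher and 296 to 1979 lower, and 0 to 961 differences between days. The low ends all came from leaving out a replicate 3, which leaves 1 column in that arm, assumed to vary like the other groups.

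Without scaling factors the list medians turned positive for lipid droplet genes (0.26), ribosome biogenesis (0.38) and mitochondrially encoded genes (0.26). So did those of CDK inhibitors and p53 targets (0.34) and of ER chaperones and the unfolded protein response (0.33). The median of ribosome biogenesis ran between -0.171 and 0.019 when single POD2 libraries were left out. Of genes that did not pass, Cdc25b stood at 0.30 without scaling factors. Mybl2 stood at -0.134 as labelled, -0.106 with the replicate block, -0.084 in POD2 alone as labelled, -0.145 without both libraries that carry different days, and -0.176 to 0.221 when single POD2 libraries were left out. The causes were not tested. With n = 2 columns a group, genes that did not pass may still differ. At totals of 13189392 to 15822043 counts a library, genes near 0 in the libraries labelled isotype rest on single reads.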

Other observations

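Gene families taken by symbol after the values were seen are given beside the 9.22% of all genes called lower and 16.1% called higher. Of 38 nuclear subunits of NADH dehydrogenase, the first complex of the respiratory chain, 31 were lower in anti-Gr1-labelled libraries and none higher (median log2 -1.10, against 0.10 over all genes). Of 79 mitochondrial ribosomal protein genes 56 were lower (median log2 -0.89). The 2 counts were 12 and 7 without scaling factors, 0 and 4 without anti-Gr1 replicate 3, and 0 and 4 without isotype replicate 3. Of 21 centromere protein genes 17 were lower (median log2 -2.11), 14 with either replicate 3 left out, and of 8 condensin subunits, which compact mitotic chromosomes, 7 were lower. Among receptors of innate immunity, 10 of 12 Toll-like receptor genes were higher (median log2 2.68), 4 without anti-Gr1 replicate 3 and 2 without isotype replicate 3. Of 23 C-type lectin genes 15 were higher (median log2 2.48), 10 and 9 in those fits, and of 16 matrix metalloproteinase genes 8 were higher, 7 and 5 in those fits. Kinesin genes went both ways, with 7 higher and 11 lower of 34 (median log2 0.175), 2 and 7 without anti-Gr1 replicate 3 and 1 and 9 without isotype replicate 3. Of 32 collagen chain genes 3 were higher and none lower, and of 38 proteasome subunits 1 was higher and 10 lower, none of either family with either replicate 3 left out and no proteasome subunit lower without scaling factors.

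A few single genes stood apart. Obox8, an oocyte-specific homeobox gene, had 0 counts in all 3 anti-Gr1-labelled libraries at POD2 and 12.3, 12.2 and 6.65 CPM in isotype-labelled ones, and at most 0.0540 CPM in any POD1 library. Cyp2c55, a cytochrome P450 below the mean level asked of the genes with the largest falls, stood at 0.366, 0.0655 and 0.208 CPM in anti-Gr1-labelled libraries, against 10.9, 10.4 and 10.3 CPM in isotype-labelled ones. Gkn3 (gastrokine 3) was high in 1 library, at 16.8 CPM in isotype replicate 3, against 0.0693 to 0.327 CPM in anti-Gr1-labelled libraries and 0.526 and 0.718 CPM in the other libraries labelled isotype.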
